A study of Drosophila melanogaster with 12 samples.

Results

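Uextra is the sequence of the dm3 build of the *Drosophila* genome in which short contigs that could not be assembled into any chromosome were placed end to end. The regions described here are the places on Uextra where the S9.6 antibody was enriched in S2 cells without RNase H (RNH). They were obtained by merging the peaks of the 4 RNH-untreated lists wherever peaks shared at least 1 bp, and by keeping the merged regions on Uextra. This gave 3066 regions of 12155 in the genome (25.2%). The other 9089 regions lay on the chromosome arms (7721), on the Het sequences (806), on U (561) and on the mitochondrial genome (1).

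S2 cells, a *Drosophila* line of embryonic origin, were depleted of the linker histone dH1 with 100 μg of dsRNA over 8 days or were left untreated as control cells. Each condition had 2 biological replicates, and each replicate gave an S9.6 library after RNH treatment (6 U), an S9.6 library without RNH treatment and an input library, 12 libraries in all. Control cells received no dsRNA of another sequence, so depletion of dH1 and exposure to dsRNA cannot be told apart. The level of dH1 is not given by the peak lists.

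R-loops are structures in which a transcript pairs with the template strand of the DNA and displaces the other strand. S9.6 recognizes the hybrid of RNA and DNA, and RNH digests RNA only within such a hybrid, which makes loss of S9.6 enrichment after RNH the usual criterion for an R-loop. Linker histone H1 binds the nucleosome and the DNA that leaves it and helps chromatin to fold, and in *Drosophila* it contributes to the silencing of transposons and other repeats in heterochromatin. Much of Uextra is repeated sequence of this kind, which resists assembly. Neighbouring regions on Uextra may come from distant places in the genome, and a contig may be a second copy of a sequence that is also present elsewhere in the build.

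The values come from 8 deposited peak lists. They correspond to the 8 S9.6 libraries, and the input of the replicate served as background. Every alignment site of a read was kept, up to an upper limit set by the authors. Reads of a repeat therefore contribute to its copies up to that limit, and their peaks are not independent. Each peak carries a score, 10 times the negative log10 of its *p*-value, with a floor of 50 in these lists and a value of 3100 where the *p*-value was too small to be computed. The score is used here as a percentile within its own list. The lists hold between 442 and 9368 peaks but do not state how many reads support a peak, so that depth is unknown. The RNH-untreated list of dH1-depleted replicate 1 stands apart in that its peaks are narrow. On Uextra their median width was 240 bp, while in the other 7 lists it lay between 978 bp and 1080 bp. Where this list decides a value, the value without it is given too.

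The Uextra regions were small and closely spaced. Their median width was 780 bp (71 to 4161 bp), while regions elsewhere had a median of 1024 bp. The narrow regions came from a single list, since all 1150 regions under 300 bp were called only in the list with narrow peaks. Regions called in 2 or more lists were at least 387 bp wide, and those called in all 4 lists had a median of 1175.5 bp. The gap from a region to the next had a median of 5479 bp, and 306 gaps were under 500 bp. Uextra held 105.7 regions per Mb, up to the end of its last peak at 29004140. This was more than the Het sequences (88.0), the chromosome arms (64.2) and U (55.8), measured in the same manner. In base pairs the order differed, since the regions covered 7.89% of Uextra and 10.3% of the Het sequences. These values moved without the narrow list. Merged from the other 3 RNH-untreated lists, Uextra had 1728 regions with a median width of 1093.5 bp and a median gap of 10041 bp, which is 59.6 regions per Mb. The Het sequences then had 54.1, the arms 37.7 and U 32.7, so the order of the densities was the same.

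After RNH treatment, 319 and 406 peaks were called on Uextra in replicates 1 and 2 of dH1-depleted cells, against 2837 and 1470 without RNH. In control cells there were 789 and 736 peaks after RNH, against 1102 and 1120 without RNH. In every replicate fewer Uextra peaks were called after RNH, and the decrease was larger in both dH1-depleted replicates than in both control replicates. The log2 ratio of treated over untreated peak numbers was -3.15 and -1.86 in dH1-depleted cells and -0.48 and -0.61 in control cells. Over the 4 replicates the mean was -1.52 ± 1.25 (SD, n = 4, exact sign-flip test, 2-sided, *p* = 0.13). This is the smallest *p* that 4 pairs can give. An exact permutation of the 8 lists without the pairing gave 0.029, likewise the smallest it can give. That test ignores that both lists of a replicate share DNA and input. Without dH1-depleted replicate 1, the mean was -0.98. The difference between the conditions in this ratio was -1.96 (exact permutation test, 2-sided, *p* = 0.33, the smallest that 2 libraries against 2 can give). It was -1.31 without dH1-depleted replicate 1 and -0.79 when all lists of a treatment were cut to the same number of peaks (442 after RNH and 3807 without). None of the 10 comparisons made per library, listed here and below with their *p*, could reach 0.05 with the tests chosen for it. After Benjamini-Hochberg adjustment over the 10, exact tests with a *p* of 0.13 gave 0.25 and those with 0.33 gave 0.37.

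Although fewer in number, the Uextra peaks made up a larger part of what was called after RNH than without it. In dH1-depleted cells, 72.2% and 48.4% of the RNH-treated peaks lay on Uextra, against 30.3% and 26.6% of the RNH-untreated peaks. In control cells the shares were 78.8% and 81.5% after RNH, against 27.4% and 29.4% without RNH. The share was higher after RNH in 4 of 4 replicates, by 2.66 ± 0.94 in log2 odds (SD, n = 4, exact sign-flip test, *p* = 0.13, and 0.029 without the pairing). Without RNH, the Uextra share averaged 28.4% ± 2.6 in dH1-depleted cells and 28.4% ± 1.4 in control cells (SD, n = 2 each). The values of the 2 conditions overlapped, and their difference in log2 odds was -0.00090 (exact permutation test, *p* = 1). Its sign turned under several alternatives, so it has no direction. The Uextra peak number without RNH was 2154 ± 967 in dH1-depleted cells and 1111 ± 12.7 in control cells (SD, n = 2 each), a log2 ratio of 0.88 (exact permutation test, *p* = 0.33). This ratio was 0.40 without dH1-depleted replicate 1, 0.38 with equal numbers of peaks and -0.0043 in base pairs. In base pairs the narrow list covered 803217 bp of Uextra and dH1-depleted replicate 2 covered 1680698 bp, against 1154621 bp and 1176125 bp in control replicates 1 and 2.

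**Figure D1:**
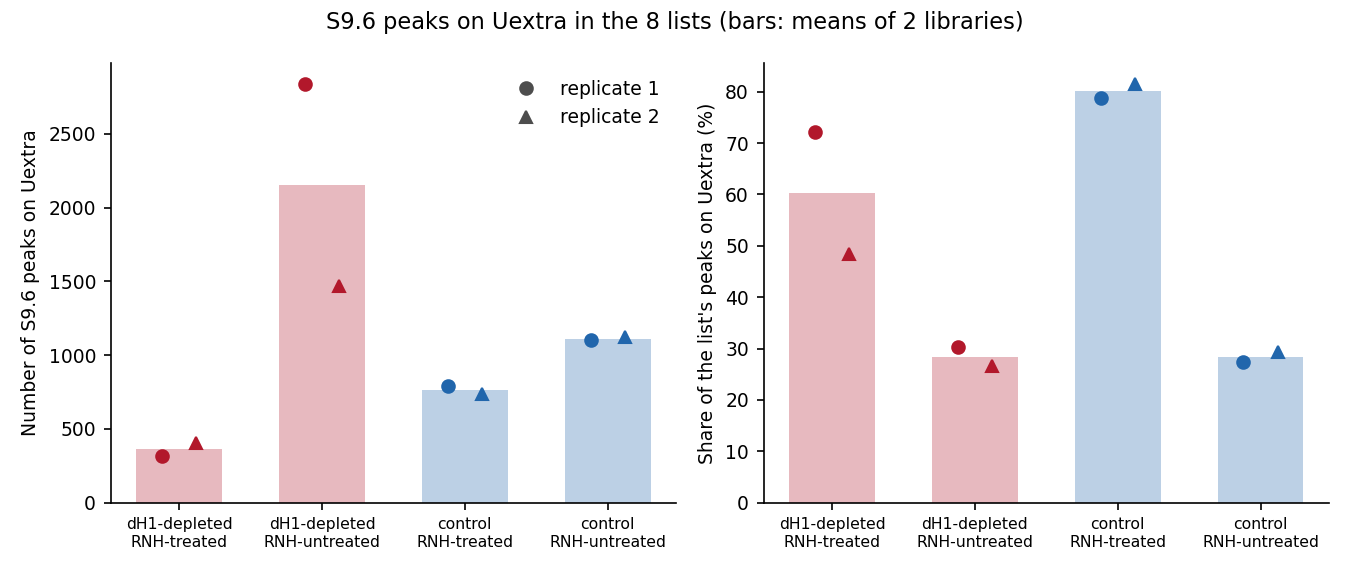
Number of S9.6 peaks on Uextra (left) and share of each list's peaks that lie on Uextra, in percent (right), for the 8 lists. Points are libraries and bars are the means of 2 libraries. The dH1-depleted RNH-untreated replicates lie far apart (2837 and 1470 peaks), and the share is above 48% in every RNH-treated list and at most 30.3% in every RNH-untreated list.

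Uextra peaks also ranked high within their lists. Without RNH, the median score percentile in dH1-depleted cells was 73.6 and 61.1 for Uextra peaks, against 42.5 and 46.1 for peaks elsewhere in the same lists. In control cells it was 66.3 and 68.2 for Uextra peaks, against 43.6 and 43.3 elsewhere. The difference was 23.4 ± 6.70 points (SD, n = 4, exact sign-flip test, *p* = 0.13), with Uextra higher in 4 of 4 lists. Among the 10% of peaks with the highest scores, 74.7% and 43.0% lay on Uextra in dH1-depleted cells and 51.5% and 60.1% in control cells. After RNH, the median percentile of Uextra peaks was 47.1 and 60.5 in dH1-depleted cells and 53.6 and 52.5 in control cells, against 57.7, 43.0, 35.4 and 36.4 elsewhere. Here Uextra was higher in 3 of 4 lists and lower in dH1-depleted replicate 1, and the mean difference of 10.3 ± 14.0 points (exact sign-flip test, *p* = 0.25) changed its sign, to -3.73, with equal numbers of peaks.

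Calling of Uextra regions across the RNH-untreated lists was uneven. A single list, dH1-depleted replicate 1, accounted for 1338 regions that no other list called (43.6% of the 3066), with a median width of 198 bp. Another 359 regions were called in dH1-depleted replicate 2 alone. Control replicates 1 and 2 added 6 and 5 regions of their own. Elsewhere in the genome, 41.0% and 16.3% of regions were called by dH1-depleted replicate 1 or 2 alone, and 332 and 240 regions by control replicate 1 or 2 alone. On the other hand, 726 regions (23.7%) were called in all 4 lists, against a background of 12.9% of all 12155 regions. Of the regions in the genome called in all 4 lists, 46.5% were on Uextra. With only peaks of score 100 and above, 1909 regions remained and 433 were called in all 4 lists, and without dH1-depleted replicate 1 there were 1728 regions, of which 818 were called in the 3 remaining lists.

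**Figure D2:**
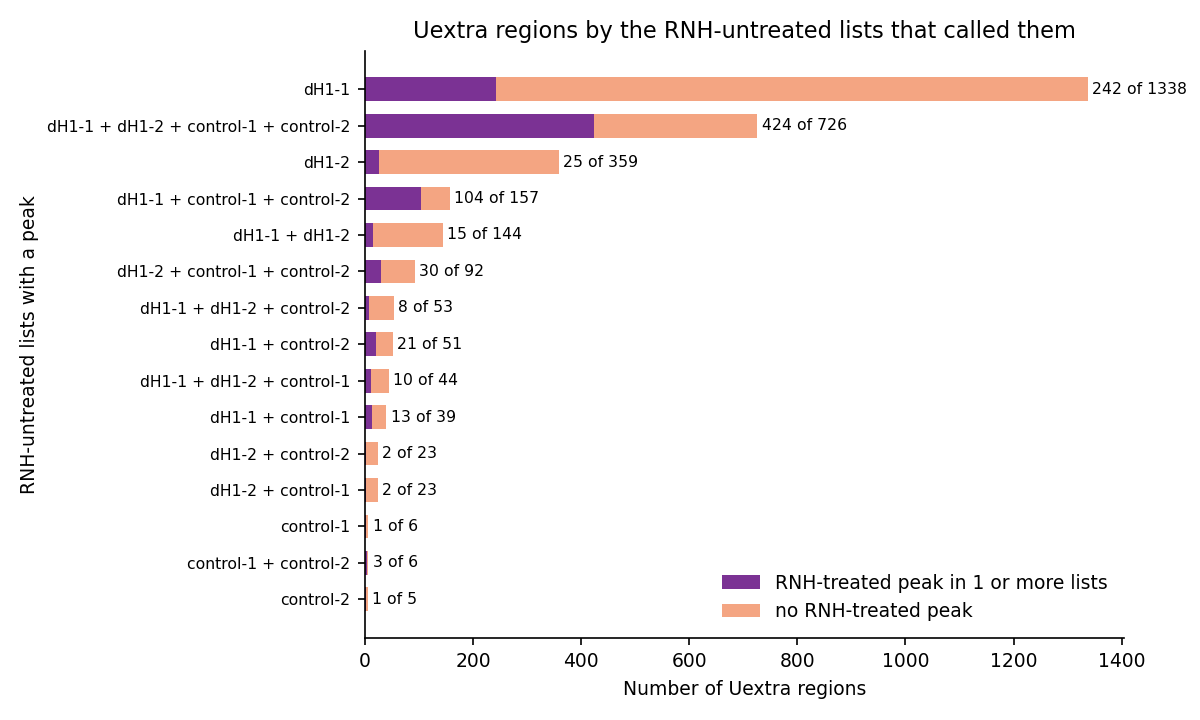
Number of Uextra regions (horizontal axis) by the combination of RNH-untreated lists that called them, from the most to the least frequent, where dH1-1 is dH1-depleted replicate 1. The dark part of a bar is the regions with a peak in 1 or more RNH-treated lists, as in 242 of the 1338 regions of dH1-depleted replicate 1 alone and 424 of the 726 regions of all 4 lists.

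Regions called only in dH1-depleted cells, that is in both of their RNH-untreated lists and in neither control list, numbered 144 on Uextra (4.70%). The background in the genome was 4.25%, so Uextra held such regions at about the rate of the whole set. Regions called only in control cells numbered 6 on Uextra (0.196%), against a background of 2.41%. Thus Uextra carried 27.9% of the dH1-only regions and 2.05% of the control-only regions of the genome. Most control peaks on Uextra coincided with the narrow list, since a peak of dH1-depleted replicate 1 overlapped 88.1% and 88.7% of the peaks of control replicates 1 and 2, and a peak of dH1-depleted replicate 2 overlapped 80.9% and 80.3%. Other pairs of lists set a scale for these counts. On Uextra, 39 and 51 regions (1.27% and 1.66%) were called by dH1-depleted replicate 1 with control replicate 1 or 2 and by no other list. Another 23 and 23 (0.750% each) were called by dH1-depleted replicate 2 with control replicate 1 or 2. Elsewhere the same pairs called 162 and 121 regions (1.78% and 1.33%) and 239 and 166 regions (2.63% and 1.83%). There, 372 regions (4.09%) were dH1-only and 287 (3.16%) control-only. The dH1-only and control-only counts on Uextra changed with the lists used. At equal numbers of peaks, 34 of 2122 Uextra regions were dH1-only and 28 were control-only. At scores of 100 and above, they were 65 and 10 of 1909. Without dH1-depleted replicate 1 the counts were 503 and 163 of 1728, and without dH1-depleted replicate 2 they were 1499 and 99 of 2727. The background in the genome was not counted at these settings.

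The 144 dH1-only regions were of moderate score. Their median percentile was 51.0 in replicate 1 and 38.6 in replicate 2, while the 726 regions called in all 4 lists had medians of 89.7 and 78.7 in the same lists. The highest ranked dH1-only region, Uextra:5013277-5014428 (1152 bp), scored 164.9 and 309.6 in dH1-depleted replicates 1 and 2 (percentiles 80.8 and 89.1). Next in rank, Uextra:12370080-12371165 (1086 bp) scored 134.4 and 298.7, and Uextra:17216132-17217342 (1211 bp) scored 124.2 and 204.7. The following regions were Uextra:28038588-28039824, with scores of 109.6 and 248.7, and Uextra:3173968-3175078, with 105.3 and 214.5. None of these 5 had a peak in any of the 4 RNH-treated lists. All 5 ranked higher in replicate 2 than in replicate 1.

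Among the 6 control-only regions, the highest ranked were weak. Uextra:3953676-3954343 (668 bp) scored 101.4 and 76.6 in control replicates 1 and 2, Uextra:18667806-18668956 (1151 bp) scored 74.6 and 58.8, and Uextra:8980927-8981974 (1048 bp) scored 55.9 and 92.1. These 3 regions had no RNH-treated peak. Uextra:9943865-9945311 (1447 bp), with 69.4 and 112.0 without RNH, also had a peak of score 58.3 after RNH in control replicate 1. Uextra:7039262-7039858 (597 bp) differed from the rest. It scored 56.2 and 77.3 without RNH in control cells, but 375.6 and 193.2 after RNH in dH1-depleted replicates 1 and 2 and 526.6 and 577.5 after RNH in control replicates 1 and 2. Both RNH-treated lists of dH1-depleted cells thus called this region, although neither of their RNH-untreated lists did.

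The RNH-treated lists were then used to ask how much of the S9.6 enrichment on Uextra was lost after RNH. In the same replicate, an RNH-treated peak overlapped 11.7% (Wilson 95% interval 10.6 to 13.0) and 14.0% (12.3 to 15.9) of the RNH-untreated Uextra peaks of dH1-depleted cells. In control cells it overlapped 47.6% (44.7 to 50.6) and 44.0% (41.1 to 46.9). The shares averaged 12.9% ± 1.61 in dH1-depleted cells and 45.8% ± 2.56 in control cells (SD, n = 2 each), a difference of -33.0 percentage points that exceeded the spread between replicates (exact permutation test, *p* = 0.33). After the cut to equal list lengths described above it was -13.3 points, and without dH1-depleted replicate 1 it was -31.8 points. Thus most Uextra peaks lost their call after RNH in dH1-depleted cells, and close to as many kept as lost it in control cells. In numbers, the dH1-depleted RNH-treated lists held 442 and 839 peaks in the genome and the control ones 1001 and 903. The part of list length and depth in this difference was not tested beyond the cut to equal numbers.

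On the pool of remaining sequences, which is mostly chromosome arms, the overlap was small and the values of the conditions overlapped. It was 2.91% and 3.70% in dH1-depleted cells and 3.71% and 3.09% in control cells. The excess of Uextra over the other sequences was therefore 8.83 and 10.3 points in dH1-depleted cells and 43.9 and 40.9 points in control cells, with a mean of 26.0 ± 19.0 points (SD, n = 4, exact sign-flip test, *p* = 0.13). Counted with equal numbers of peaks, the mean was 16.7 points. U, the other sequence of unplaced contigs, was closest to Uextra, with an overlap of 11.7% and 6.33% in dH1-depleted cells and 24.8% and 19.3% in control cells. In dH1-depleted replicate 1 the values of Uextra and U were the same to 3 digits. The Het sequences had 5.10% and 2.39% in dH1-depleted cells and 9.22% and 7.63% in control cells. The chromosome arms had 1.88% and 3.64% in dH1-depleted cells and 2.21% and 1.86% in control cells. On U and the Het sequences, as on Uextra, both dH1-depleted values were thus below both control values. Uextra exceeded U by 13.8 ± 11.9 points, the Het sequences by 23.3 ± 16.5 points and the arms by 27.0 ± 19.5 points. Each difference was positive in 4 of 4 replicates (exact sign-flip test, *p* = 0.13, also after adjustment over 6 such comparisons).

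**Figure D3:**
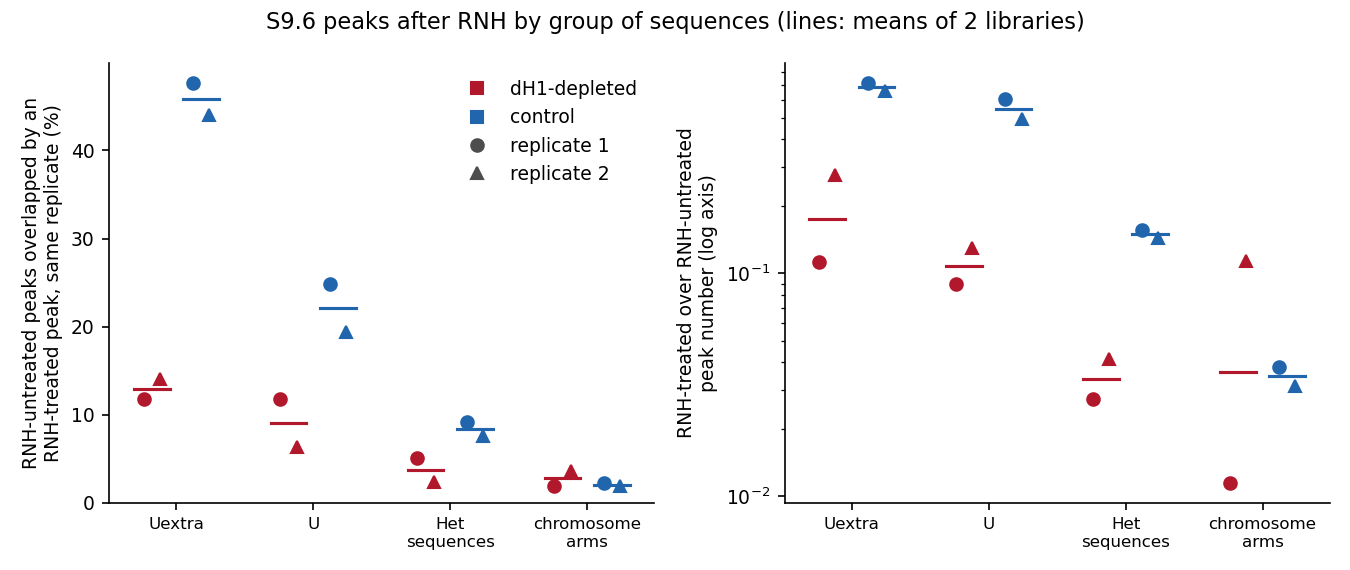
Left, percent of RNH-untreated peaks overlapped by an RNH-treated peak of the same replicate, and right, ratio of RNH-treated to RNH-untreated peak numbers on a log axis, for Uextra, U, the Het sequences and the chromosome arms. Points are replicates and lines are means of 2 replicates, of percents on the left and of log2 ratios on the right. Points of dH1-depleted cells lie below those of control cells on Uextra, U and the Het sequences, and on Uextra at 11.7% and 14.0% against 47.6% and 44.0%.

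By region, 901 of the 3066 Uextra regions (29.4%) had an RNH-treated peak in 1 or more of the 4 lists, against a background of 11.3% in the genome. At these regions S9.6 enrichment was still called after RNH in at least 1 library, so loss of the peak does not mark them as R-loops in every library. The other 2165 regions (70.6%) had none. A peak in all 4 RNH-treated lists was present at 171 Uextra regions (5.58%, background 1.66%), which were 84.7% of all such regions in the genome. Both backgrounds include Uextra. Outside Uextra the shares were 5.15% for any list and 0.341% for all 4 lists. U exceeded this pool. Of the 349 U regions called in 1 RNH-untreated list, 19.2% had an RNH-treated peak in any list and 3.15% in all 4. Uextra had 15.7% and 3.40% there. Of the 90 U regions called in all 4 RNH-untreated lists, the shares were 43.3% and 6.67%, against 58.4% and 10.7% on Uextra. At scores of 100 and above, 572 of 1909 Uextra regions had an RNH-treated peak in any list and 58 in all 4. With equal numbers of peaks, 513 of 2122 had one in any list. Without dH1-depleted replicate 1, 620 of 1728 regions had an RNH-treated peak in any of the remaining lists. The background in the genome was not counted at these settings. On Uextra the control lists contributed more of the RNH-treated peaks. A peak in either dH1-depleted RNH-treated list was present at 505 regions (16.5%) and in either control list at 825 (26.9%). Both dH1-depleted lists called 177 regions (5.77%) while both control lists called 669 (21.8%). On the other sequences, 331 of 9089 regions (3.64%) had a peak in either dH1-depleted list and 261 (2.87%) in either control list, while 35 had it in both dH1-depleted lists and 142 in both control lists. A peak in both dH1-depleted RNH-treated lists and in neither control one was found at 5 Uextra regions (0.163%). A peak in both control RNH-treated lists and in neither dH1-depleted one was found at 275 (8.97%), the most frequent combination with any peak. Elsewhere in the genome, 0 of 9089 regions had the combination of dH1-depleted cells and 61 (0.671%) had that of control cells. For 0 regions, 3 divided by the number of regions gives an upper limit of 0.033%. This limit treats regions as independent, which copies of a repeat are not. Among the 726 Uextra regions called in all 4 RNH-untreated lists, where every library had enrichment without RNH, 3 had the combination of dH1-depleted cells and 157 (21.6%) that of control cells. Elsewhere, 0 and 22 (2.63%) of 836 such regions did. The dH1-depleted RNH-treated lists were shorter on Uextra (319 and 406 peaks against 789 and 736) and shared fewer peaks with each other, so fewer regions could be called in both.

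Regions called by more RNH-untreated lists had an RNH-treated peak more often. This share was 15.7% of 1708 Uextra regions called in 1 list, 19.6% of 286 called in 2 lists, 43.9% of 346 called in 3 lists and 58.4% of 726 called in all 4 lists. Elsewhere it was 3.53%, 4.53%, 4.97% and 17.6% in the same order. The pool of other sequences is mostly chromosome arms. U, the other unplaced sequence, had 19.2% of 349 regions called in 1 list, 9.86% of 71 in 2 lists, 15.7% of 51 in 3 lists and 43.3% of 90 in all 4 lists, which is above Uextra at 1 list and below it at the other numbers. Of the 144 dH1-only Uextra regions, 15 (10.4%) had an RNH-treated peak, 6 of them in a list of dH1-depleted cells and 12 in a list of control cells. This is near the share of the dH1-only regions elsewhere, 34 of 372 (9.14%). Of the 1338 regions called by dH1-depleted replicate 1 alone, 242 (18.1%) had an RNH-treated peak, against 3.76% of the 3728 such regions elsewhere. In control replicates 1 and 2 there was an RNH-treated peak at 211 and 208 of the 1338, although neither control list called them without RNH.

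Not all RNH-treated peaks fell on an RNH-untreated peak of the same replicate. In dH1-depleted cells 86.8% and 51.0% of the Uextra RNH-treated peaks did so, and in control cells 65.7% and 66.3%. For the other sequences the shares were 75.6% and 33.5% in dH1-depleted cells while in control cells 106 of 212 and 83 of 167 peaks did so, and the dH1-depleted replicates thus stood apart there too. Across conditions, the narrow list of dH1-depleted replicate 1 covered 89.2% and 91.6% of the RNH-treated peaks of control replicates 1 and 2, a larger share than either control RNH-untreated list did (65.6% to 66.3%). Of the RNH-treated Uextra peaks, 25 of 319 and 48 of 406 in dH1-depleted cells lay outside the 3066 regions. In control cells 58 of 789 and 48 of 736 did. These regions include those of the narrow list, and the same count was not made on the other sequences.

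The share of Uextra peaks that kept an overlapping peak after RNH was highest among the peaks of highest score. Peaks of each RNH-untreated list were divided by score into 4 classes of equal size. In the highest class, 18.1% and 25.6% of the Uextra peaks of dH1-depleted cells and 68.2% and 66.2% of those of control cells were overlapped by an RNH-treated peak of the same replicate. In the lowest class the shares were 3.22% and 7.84% in dH1-depleted cells and 26.7% and 23.4% in control cells. Outside Uextra, the highest class had 10.1% and 7.97% in dH1-depleted cells and 13.7% and 12.1% in control cells. Thus the lowest class of Uextra peaks in control cells exceeded the highest class of the pool of other peaks. Most of this pool lies on the chromosome arms. The difference between Uextra and the pool was present in each class and in each replicate. U and the Het sequences were not split by score. Over all scores, the overlap on U in control cells was 24.8% and 19.3%, near the lowest class of Uextra.

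**Figure D4:**
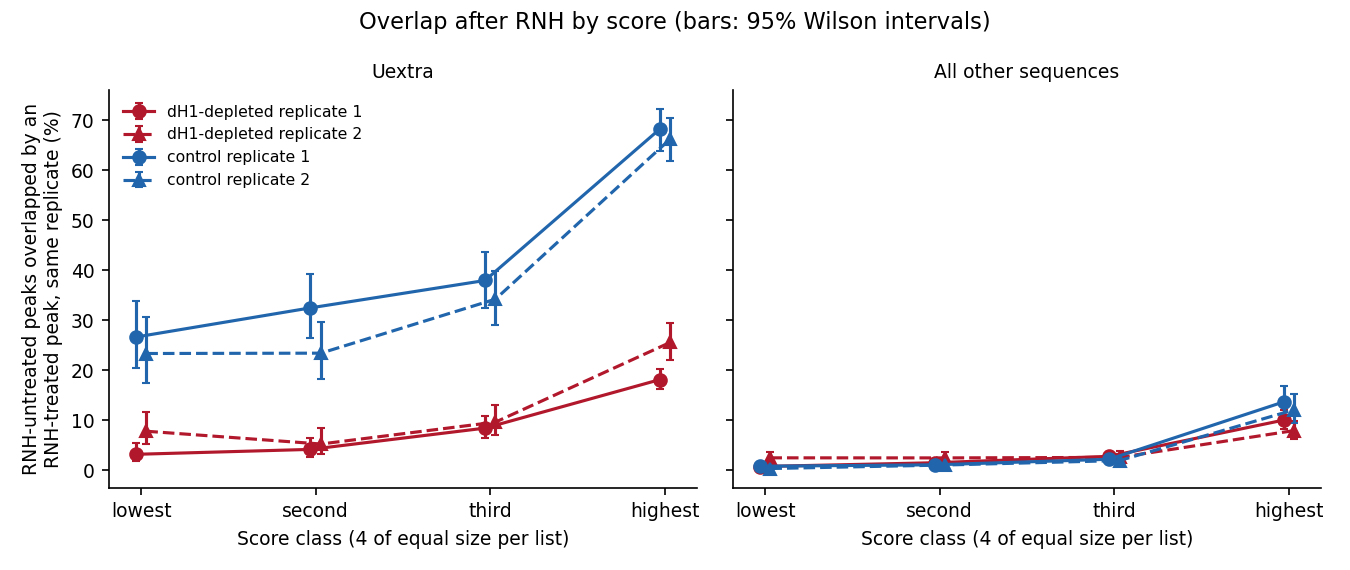
Percent of RNH-untreated peaks overlapped by an RNH-treated peak of the same replicate, by score class (4 classes of equal size per list). Uextra is on the left and all other sequences, mostly chromosome arms, are on the right. Lines are the 4 replicates and bars are Wilson 95% intervals, which cover counting error only. On Uextra the dH1-depleted replicates reach 18.1% and 25.6% in the highest class and the control ones 68.2% and 66.2%, and elsewhere none exceeds 13.7%.

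Where a Uextra region had a peak both with and without RNH in the same replicate, its score after RNH was seldom the higher one in dH1-depleted cells. The RNH-treated score was the higher at 45 of 296 regions (15.2%) in replicate 1 and at 35 of 205 (17.1%) in replicate 2 of dH1-depleted cells, and at 191 of 519 (36.8%) and 168 of 487 (34.5%) in replicates 1 and 2 of control cells. On the pool of other sequences it was the higher at 29.5% and 30.3% of regions in dH1-depleted cells and at 29.6% and 27.7% in control cells. The Uextra shares were below those of this pool in dH1-depleted cells and above them in control cells. In dH1-depleted cells the Uextra shares were also below those of U and of the Het sequences. The excess in control cells did not hold against the Het sequences, where the RNH-treated score was the higher at 8 of 13 and 4 of 9 regions. U had 24.3% and 34.5% in control replicates 1 and 2, below Uextra in replicate 1 and level with it in replicate 2. In dH1-depleted cells the median score of these Uextra regions was 81.6 and 90.9 after RNH, against 278.0 and 296.4 without RNH. In control cells it was 208.3 and 236.8 after RNH, against 198.2 and 238.8 without RNH. The scores are not normalized for depth, so they compare libraries as called and not amounts of hybrid.

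Replicates shared more of their Uextra peaks than of the pool of their other peaks. Without RNH, 41.8% and 66.1% of the Uextra peaks of dH1-depleted replicates 1 and 2 were overlapped by a peak of the other replicate, and 89.8% and 88.2% in control cells. For the other sequences the shares were 33.0% and 35.6% in dH1-depleted cells and 69.9% and 76.1% in control cells. Uextra was higher in 4 of 4 lists, by 17.8 ± 9.65 points (SD, n = 4, exact sign-flip test, *p* = 0.13), and by 10.6 points in base pairs. U had 48.5% and 53.3% in dH1-depleted cells and 77.9% and 77.3% in control cells, so in dH1-depleted replicate 1 it was above Uextra. After RNH the shares on Uextra were 54.9% and 42.9% in dH1-depleted cells and 84.4% and 90.9% in control cells. The pool of other sequences had 23.6%, 6.70%, 59.9% and 76.0% in the same order. U had 33.3%, 38.5%, 75.6% and 91.9%, and the Het sequences 33.3%, 26.3%, 72.7% and 94.1%, from few peaks. In control replicate 2 both were thus above Uextra. The order of scores was compared by Spearman correlation over shared Uextra regions. Between the dH1-depleted replicates it was 0.41 after RNH (177 regions) and 0.38 without RNH (967 regions), and between the control replicates it was 0.91 after RNH (669 regions) and 0.86 without RNH (981 regions). A dH1-depleted and a control RNH-untreated list gave 0.56 to 0.60. These correlations are across regions, which are not independent since copies of a repeat share reads.

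Peaks with exactly the width and the score of another peak of the same list were counted separately within Uextra and within the other sequences. Without RNH, they were less frequent within Uextra than within the larger pool of other sequences, where a peak has more possible matches. On Uextra they were 213 of 2837 peaks (7.51%) in dH1-depleted replicate 1 and 10 of 1470 (0.680%) in replicate 2, and 2 and 4 peaks in control replicates 1 and 2. On the other sequences they were 43.3% and 4.78% of peaks in dH1-depleted cells and 4.91% and 5.21% in control cells. Matches between Uextra and the other sequences are not in these counts. Such a match was found for 387 Uextra peaks of dH1-depleted replicate 1 and 18 of replicate 2. In control replicates 1 and 2 it was found for 4 and 9. These counts do not show which peaks share reads.

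Along Uextra, the regions were not spread evenly. The first 28 stretches of 1 Mb held 67 to 148 regions each, with a median of 93.5. The next stretch, from 28000001 to 29000000, held 425, and with the 6 regions after it the end of Uextra had 431 regions (14.1% of all). Their median width was 530 bp, against 810 bp in the rest of Uextra. Merged from the 3 lists other than the narrow one, the end of Uextra had 232 of 1728 regions (13.4%), and the 28 stretches before it had 37 to 80. The median widths were then closer, 930.5 bp at the end and 1111 bp in the rest. An RNH-treated peak in any list was present at 49.2% of the 431 regions (Wilson 95% interval 44.5 to 53.9), against 26.1% (24.5 to 27.9) of the other 2635. In the merge of 3 lists these shares were 75.9% and 32.3%. Of the 144 dH1-only regions, 1 was in this stretch. Called in all 4 RNH-untreated lists were 33.4% of its regions and 22.1% of the rest.

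By library, 14.8% and 41.0% of the RNH-untreated peaks of this stretch were overlapped by an RNH-treated peak in dH1-depleted cells (replicates 1 and 2), and control cells had 78.4% and 78.1%. In the rest of Uextra the shares were 11% and 10.8% in dH1-depleted cells and 39.9% and 35.5% in control cells. The median score percentile of its RNH-untreated peaks was 90.2 and 84.3 in dH1-depleted cells and 87.8 and 90.5 in control cells, while in the rest of Uextra it was 65.9, 58.8, 62.0 and 63.3 in the same order. Without the stretch, the difference between dH1-depleted and control cells in the overlap after RNH on Uextra was -26.8 points, so it did not rest on the stretch alone. The stretch was set apart after its values were seen, and the comparison is a description. The second and the third most dense stretches were 27000001 to 28000000, with 148 regions, of which 41.9% had an RNH-treated peak, and 13000001 to 14000000, with 115 regions and 26.1%. At the opposite end, the first 1 Mb had 71 regions, and 5.63% of them had an RNH-treated peak.

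**Figure D5:**
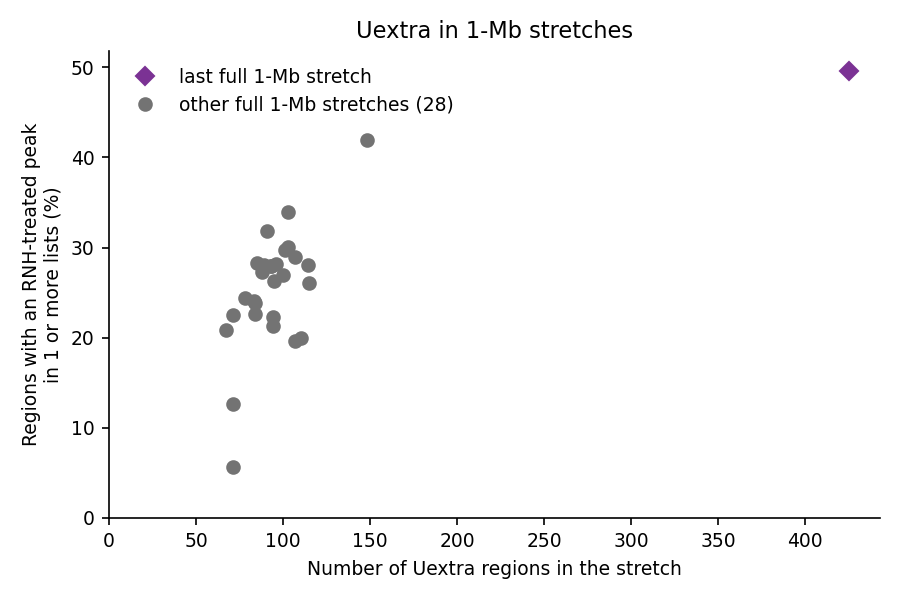
Percent of Uextra regions with a peak in 1 or more RNH-treated lists (vertical axis) against the number of regions (horizontal axis), for the full stretches of 1 Mb. Each point is a stretch. The last full stretch (diamond) stands alone at 425 regions and 49.6%, and the 28 others hold 67 to 148 regions and range between 5.63% and 41.9%.

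The strongest Uextra regions were picked by their rank after RNH or by their rank without it, so the direction of the differences below partly follows from the choice. The region with the highest scores after RNH was Uextra:5223583-5224885 (1303 bp). It was the top Uextra region in all 4 RNH-treated lists, with scores of 3041 and 3043 in dH1-depleted replicates 1 and 2 and of 3100 in both control replicates. Without RNH it scored 568.9 and 1701 in dH1-depleted cells and 1975 and 2259 in control cells. Its score was thus higher after RNH in 4 of 4 replicates. Uextra:26599018-26600004 (987 bp) also scored higher after RNH in the 3 replicates that called it both ways, with 1524 and 963.8 after RNH in dH1-depleted cells and 1273 and 1477 in control cells. Without RNH it had no peak in dH1-depleted replicate 1 and scored 299.4 in dH1-depleted replicate 2 and 346.7 and 390.4 in control replicates 1 and 2. Uextra:22939427-22939981 (555 bp) was called in the 4 RNH-treated lists, with 344.8 and 544.5 in dH1-depleted cells and 1030.4 and 1065 in control cells, but without RNH only in dH1-depleted replicate 1, at 1499.

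Other regions were high without RNH and lower after it. Uextra:3430153-3431479 (1327 bp) ranked first of the regions called in all 4 RNH-untreated lists. After RNH it had no peak in dH1-depleted replicate 1 and scored 200.1 in dH1-depleted replicate 2 and 1401 and 1441 in control replicates 1 and 2. Without RNH it scored 3100 and 1679 in dH1-depleted cells and 2642 and 2366 in control cells. Uextra:28815941-28819426 (3486 bp), in the dense last stretch, scored 87.2 and 323.8 after RNH in dH1-depleted cells and 1440.3 and 824.8 in control cells, against 2334 and 2053 without RNH in dH1-depleted cells and 3100 in both control replicates. Uextra:27043747-27044648 (902 bp) had no peak after RNH in dH1-depleted replicate 1, scored 239.6 in dH1-depleted replicate 2 and scored 1060.0 and 1238 in control cells, against 2828 and 1592 without RNH in dH1-depleted cells and 1845 and 2177 in control cells. At these 3 regions the RNH-treated score was below the RNH-untreated one in every replicate that had both.

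The widest regions differed in strength. The first was Uextra:28422408-28426568 (4161 bp), also in the last stretch. After RNH it had no peak in dH1-depleted replicate 1 and scored 216.4 in dH1-depleted replicate 2 and 1191 and 1098 in control cells, against 3134 and 941.7 without RNH in dH1-depleted cells and 1287 and 1502 in control cells. Uextra:16981486-16985291 (3806 bp) had no RNH-treated peak in dH1-depleted cells and scored 71.6 and 162.5 after RNH in control cells, against 345.6 and 1655 without RNH in dH1-depleted cells and 386.1 and 1020 in control cells. Uextra:13753027-13756588 (3562 bp) scored lower than the other widest regions in dH1-depleted cells without RNH, and had 93.3 after RNH in dH1-depleted replicate 1, no such peak in dH1-depleted replicate 2 and 121.7 and 77.9 in control cells, against 156.2 and 297.6 without RNH in dH1-depleted cells and 206.5 and 77.6 in control cells. These regions each joined peaks of all 4 RNH-untreated lists.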

How the data were processed

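*Drosophila* S2 cells were analyzed by DRIP-seq with S9.6 antibodies. Per the methods, the authors aligned reads to dm3 with Bowtie 0.12.5 and kept every alignment site of a read up to an upper limit. They removed duplicates and called peaks with MACS 1.4 for each S9.6 library against its input, without pooling replicates. The authors deposited a position and a score for each peak. No column of values was left without a sample. Input libraries have no peak list and were not analysed here.

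Peaks sharing at least 1 bp were merged or counted as overlapping. Score percentiles were taken within a list, with scores of 3100 and above tied. Counts (as log2) and shares (as log2 odds or percentage points) were compared by exact permutation tests over libraries or exact sign-flip tests, all 2-sided, where the RNH-treated library of a replicate was paired with its RNH-untreated one. Percent of all regions in the genome that meet the same definition is given as background. Wilson 95% intervals cover counting error only, since peaks of repeated copies share reads and depth is unknown. Regions named were the 5 of highest rank (by the lowest percentile over the lists concerned) called in all 4 lists, only in dH1-depleted cells, only in control cells or in all 4 RNH-treated lists, the 3 widest, the highest of each list, and the 3 densest stretches of 1 Mb. Of those called in all 4 lists and in all 4 RNH-treated lists, 3 regions each were described. The members and the lists of results were chosen with earlier results of these data known.

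Alternatives were scores of at least 100, equal numbers of peaks, overlap of 50% of the shorter interval, the narrow list widened to 1195 bp, base pairs, joining peaks up to 500 bp apart, either RNH-treated list, the arms alone, the replicate block and leaving out each replicate. Leaving out the last stretch of Uextra, and giving density, widths and gaps without the narrow list, were chosen after seeing the data. Python 3.11.15, NumPy 2.4.6, SciPy 1.17.1, pandas 2.3.3 and matplotlib 3.10.9 were used, and the overlap, merging and test functions were tested on simulated data. No genome of the dm3 build was at hand, so sequences, repeats and genes of the regions were not analysed here.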

Additional observations from a re-analysis of the deposited data

How the results depend on the processing

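The cause of changes was not tested. The Uextra peak number without RNH, dH1-depleted over control, was -0.0043 (log2) in base pairs and 0.88 as counted. The difference in the Uextra share of peaks (-0.00090 in log2 odds) turned to 0.12 at scores of at least 100, 0.60 with equal numbers of peaks, 0.34 in base pairs and 0.078 without the last stretch. The score percentile after RNH, Uextra minus other sequences, turned to -3.73 points with equal numbers of peaks. With no replicate block, a permutation of 4 libraries against 4 gave an exact *p* of 0.029 for the share after RNH (2.66) and the peak number after RNH (-1.52). Pairs can give no less than 0.13. The value of 0.029 is the smallest of that permutation, which ignores the DNA and input shared within a replicate. With the replicate block, sign flips over the 2 pairs (smallest *p* 0.5) left the values of the conditions' differences at 0.88, -0.00090, -1.96 and -33.0.

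At scores of at least 100, there were 1909 Uextra regions, 65 called only in dH1-depleted and 10 only in control cells, 433 called in all 4 lists, 572 with an RNH-treated peak in any list and 58 in all 4. With equal numbers of peaks, there were 2122 regions. Of these, 34 were called only in dH1-depleted cells, 28 only in control cells and 513 had an RNH-treated peak in any list. Leaving out a replicate at a time gave -0.13 to 0.13 for the difference in share, 1728 to 3084 regions, 188 to 1499 called only in dH1-depleted cells and 11 to 163 only in control cells, where 1 list then stands for a condition. Of 96 alternative values of the compared differences, 8 changed their sign. Apart from the permutation without the pairing, none of their tests could reach 0.05, so the side of 0.05 is no measure of stability. Of 60 alternative counts, 44 stayed within 1.5 times.

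Depth is unknown, so peak numbers carry no correction for it. Peaks of repeated copies share reads, and their number on Uextra is not a number of independent sites.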
